A study of Mus musculus with 6 samples.

Results

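The genes described here encode the machinery of oxidative phosphorylation. They were every symbol in the count tables beginning with Nduf, Uqcr, Cox4 to Cox8 or Atp5, the genes Sdha, Sdhb, Sdhc and Sdhd, and the protein-coding genes of the mitochondrial genome. This choice by name gave 107 of the 35976 genes in the tables. Of these, 94 lie in the nuclear genome and 13 in the mitochondrial genome. The nuclear members comprised 81 structural subunits, 7 complex I assembly factors of the Ndufaf family, 4 genes whose products are not subunits of the complex they are named for or of any (Atp5s, Atp5sl, Cox7a2l and Ndufa4l2), and 2 pseudogenes (Atp5c1-ps and Uqcrh-ps1).

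The animals were male C57BL/6J mice given an adeno-associated viral vector (AAV) whose Cas9 was under the GfaABC1D promoter, which is active in astrocytes. The sgEgfr group (genotype label sgEgfrAstro) carried guides to Egfr, the epidermal growth factor receptor. The sgRosa group (genotype label sgRosa26) carried guides to the Rosa locus, which serves as a control target. Both groups had more than 2 weeks of expression, then tube restraint for 7 days, fear conditioning on 1 day and extinction sessions over 3 days, so that no unstressed group was present. The treatment text also describes guides sgRosa or sgAreg for microglia, and the labels do not say whether these animals carried them. Neither the age of the mice nor any pooling of animals is stated. Neurons were enriched magnetically from papain-digested amygdala, and each group had 3 libraries.

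Oxidative phosphorylation uses 4 respiratory complexes and an ATP synthase in the inner mitochondrial membrane. Complex I oxidises NADH, complex II oxidises succinate, complex III passes electrons from ubiquinol to cytochrome c, and complex IV reduces oxygen. Complexes I, III and IV pump protons, and complex V, the ATP synthase, uses the proton gradient to make ATP. All but complex II combine subunits made in the cytosol from nuclear genes with subunits translated inside the organelle from mitochondrial DNA, and neurons depend on the pathway for most of the ATP used in synaptic signalling.

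The libraries held between 2348897 and 10152812 counts, so that 3 counts corresponded to between 0.270 and 1.25 CPM, the read count relative to the library size after scaling by the trimmed mean of M values (TMM). Egfr, the targeted gene, was barely present in these neuron preparations, with 1.28, 4.02 and 2.34 CPM in sgEgfr libraries against 0.281, 10.9 and 2.07 CPM in sgRosa libraries, which does not check the edit in astrocytes. The summed CPM of 10 neuronal markers was 2418 to 4190 in sgEgfr libraries and 1441 to 4233 in sgRosa libraries. That of 8 oligodendrocyte markers was higher than the neuronal sum in every library, at 22070 to 56250 in sgEgfr libraries and 23780 to 69000 in sgRosa libraries. Choroid plexus markers (7 genes) summed to 2296 CPM in sgEgfr 1 and 3465 CPM in sgRosa 3, and to between 11.3 and 50.4 CPM in the other libraries. Sums over 5 erythroid markers ran from 586 to 4047 CPM in sgEgfr libraries and from 403.1 to 1070 CPM in sgRosa libraries. The sums of 8 astrocyte markers (397.8 to 1539 CPM in sgEgfr and 764.7 to 1423 CPM in sgRosa libraries) and of 8 microglial markers (32.0 to 457.9 CPM in sgEgfr and 62.2 to 156.4 CPM in sgRosa libraries) overlapped. No marker of these lists was at 0 in every library. The part of these cell mixtures in the results below was not tested beyond the fits named with each result, and in bulk libraries fewer cells of a type and less RNA per cell cannot be told apart.

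Several mitochondrial genes have annotated copies in the nuclear genome, some of them identical over long stretches. The following 60-base windows (GRCm38, 5′ to 3′) are given for COX2, which had almost no counts, and for COX1 and CYTB, which had many. COX2, a catalytic core subunit of complex IV, is shown from chrM:7323-7382 (plus strand) with its annotated copy Gm28661 at chr1:24615196-24615255 (minus strand). COX1, the catalytic subunit that holds the oxygen-reducing site, is shown from chrM:6070-6129 (plus strand) with Gm13340 at chr2:22588846-22588905 (minus strand). CYTB, the cytochrome b of complex III, is shown from chrM:14687-14746 (plus strand) with Gm11410 at chr4:80004531-80004590 (plus strand). Capitals mark the bases at which a gene and its copy differ.
COX2: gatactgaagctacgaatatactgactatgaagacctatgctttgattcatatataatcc
Gm28661: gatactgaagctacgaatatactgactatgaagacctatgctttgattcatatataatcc
COX1: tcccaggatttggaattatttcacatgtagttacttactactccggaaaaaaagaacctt
Gm13340: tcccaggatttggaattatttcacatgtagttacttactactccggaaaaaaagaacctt
CYTB: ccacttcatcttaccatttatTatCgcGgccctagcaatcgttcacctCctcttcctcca
Gm11410: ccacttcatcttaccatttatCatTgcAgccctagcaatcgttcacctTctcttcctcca
Counted from the 5′ end of the window, CYTB and its copy differ at T22C, C25T, G28A and C49T, the base of CYTB first. Over the whole aligned stretch they differ at 81 of 1142 bases. COX2 and Gm28661 do not differ over the 681 aligned bases, and COX1 and Gm13340 differ at 37 of 1545, none of them in the window shown.

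Counts of the 13 mitochondrial genes spanned a range from none to those of the most abundant messages. CYTB had 375538, 242971 and 190470 counts in sgEgfr libraries and 658040, 201862 and 606186 counts in sgRosa libraries. COX2 had 1, 0 and 0 counts in sgEgfr libraries and 2, 2 and 0 counts in sgRosa libraries, although both genes lie on the same circular genome. ATP8, a small membrane subunit of complex V, had no count in any library. Between 0 and 9 counts per library were also found for COX3, a complex IV core subunit, for ATP6, the proton channel subunit of complex V, and for ND4L, a membrane arm subunit of complex I. These 5 genes did not pass the filter on low counts and entered no test. ND3, another membrane arm subunit, passed with 37, 27 and 13 counts in sgEgfr libraries and 165, 27 and 57 counts in sgRosa libraries.

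COX2, COX3, ATP6, ND3, ND4L and ND4 were the 6 genes with more than 50% of their transcript covered by alignments to annotated nuclear copies of at least 99% identity. ND4 had 63.57% of its 1378 bases covered and still had high counts, and ATP8 had little annotated copy yet no count. In order along the mitochondrial genome ATP8 stands between COX2 and ATP6, whose annotated copies lie near each other on the minus strand of chromosome 1. Only annotated transcripts were searched, so an unannotated copy of ATP8 would not have been seen. COX1 had 31.26% covered at 99% identity and 100% at 97%, so its counts may be incomplete. ND1, ND2, ND5, ND6 and CYTB had no alignment of 50 bases or more to another annotated transcript that reached 97% identity over its whole length. ND2 came close, with 17 mismatches in 510 aligned bases, and shorter stretches within such alignments can match more closely. How reads that match several places were counted is likewise unstated, and the values of genes with near-identical copies are therefore uncertain. In the plot of counts along the mitochondrial genome the low genes stand in the shaded columns, with ATP8 as the exception among the low and ND4 among the high.

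**Figure D1:**
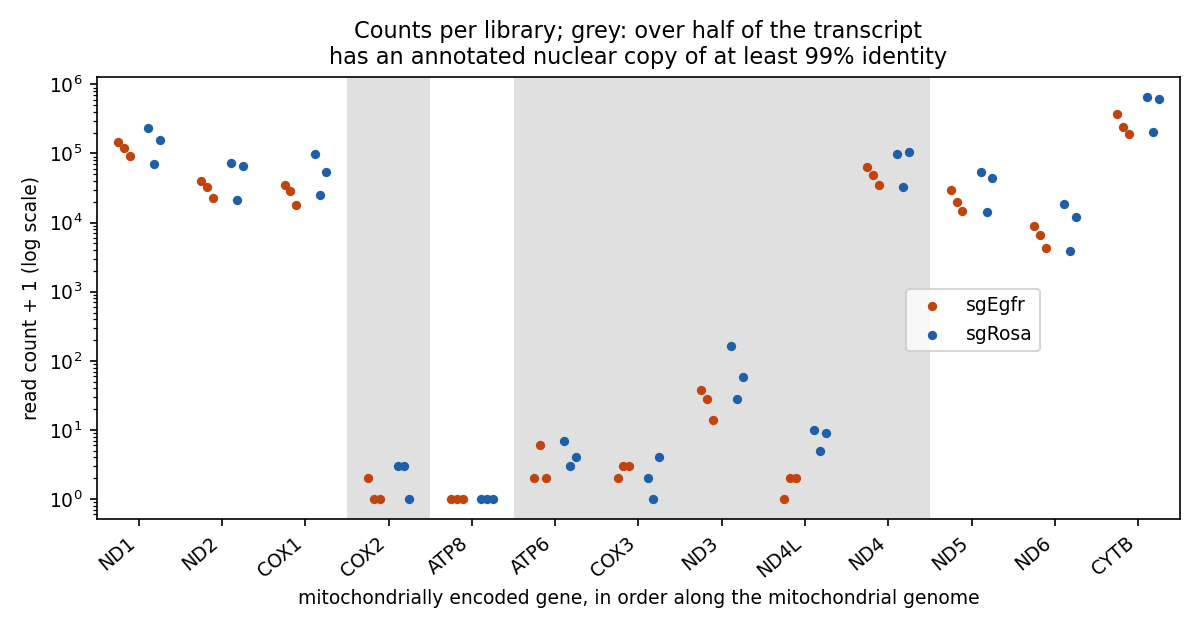
Read counts plus 1 (log axis) of the 13 mitochondrially encoded genes in their order along the mitochondrial genome, with 1 point per library and sgEgfr left of sgRosa in each column. Grey columns mark the 6 genes with more than 50% of the transcript covered by an annotated nuclear copy of at least 99% identity; 5 of these 6 and ATP8 lie far below the other genes in both groups.

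No member passed the threshold of an adjusted p of 0.05 in the comparison of sgEgfr with sgRosa. Of the 107 members, 95 passed the filter on low counts and were tested. None was called by the quasi-likelihood test of edgeR with p adjusted (Benjamini-Hochberg) over all 13159 genes tested, where the share called among all genes was 0.0%. None was called by DESeq2, which called 0.276% of the 9065 genes with a defined adjusted p, and none by limma-voom, which called 0.0% of 13159 genes. At an unadjusted p under 0.05 in edgeR, 10 members (10.5%) were lower and none higher, against 6.16% of all genes in either direction and 2.93% lower. The smallest adjusted p of any member was 0.781 by edgeR, 0.417 by DESeq2 and 0.273 by limma-voom. In the text that follows an adjusted p is edgeR's.

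The fold changes of the members were nonetheless mostly on the same side. A negative log2 fold change (lower in sgEgfr) was seen for 74 of 76 nuclear subunits tested (97.4%), against 53.7% of all genes tested. The median log2 fold change of these subunits was -0.34, a fold of 0.79, and that of all genes tested was -0.04. The 2 nuclear subunits with positive values were Ndufa10 (0.15, SE 0.29) and Cox4i2 (0.56, SE 0.58). In 20 of the 76 (26.3%) every sgEgfr library lay below every sgRosa library, against 7.6% of all genes, and in none did every sgEgfr library lie above, against 5.8% of all genes. Members of 1 pathway vary together across libraries, so these counts are not counts of independent events.

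The result depended on the libraries and on the handling of transcript length. The median of log2 CPM over the nuclear subunits was 6.68, 6.52 and 6.58 in sgEgfr libraries and 7.08, 6.63 and 7.16 in sgRosa libraries. The groups overlapped through sgRosa 2, which lay among the sgEgfr libraries, while sgRosa 1 and sgRosa 3 lay above them all. Beside this, all 10 neuronal markers had positive fold changes (median 0.52) and all 8 oligodendrocyte markers negative ones (median -0.83). All 8 microglial markers (median 1.36) and all 5 erythroid markers (median 1.78) also had positive fold changes, with 3 erythroid markers at an unadjusted p under 0.05 in edgeR and none past the adjusted threshold. The summed levels of each of these 4 lists overlapped between the groups. The highest value of a subunit was in sgRosa 3 for 48 genes, in sgRosa 1 for 26 and in sgRosa 2 for 2, and in no sgEgfr library. When each library's trend of log2 CPM on transcript length was removed, the median was -0.11 and 54 of 76 were negative. With limma-voom, which gives libraries weights by quality, it was -0.14, also with 54 of 76 negative. The median transcript length of the nuclear subunits was 737 bases, against 2790 bases for all genes tested.

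**Figure D2:**
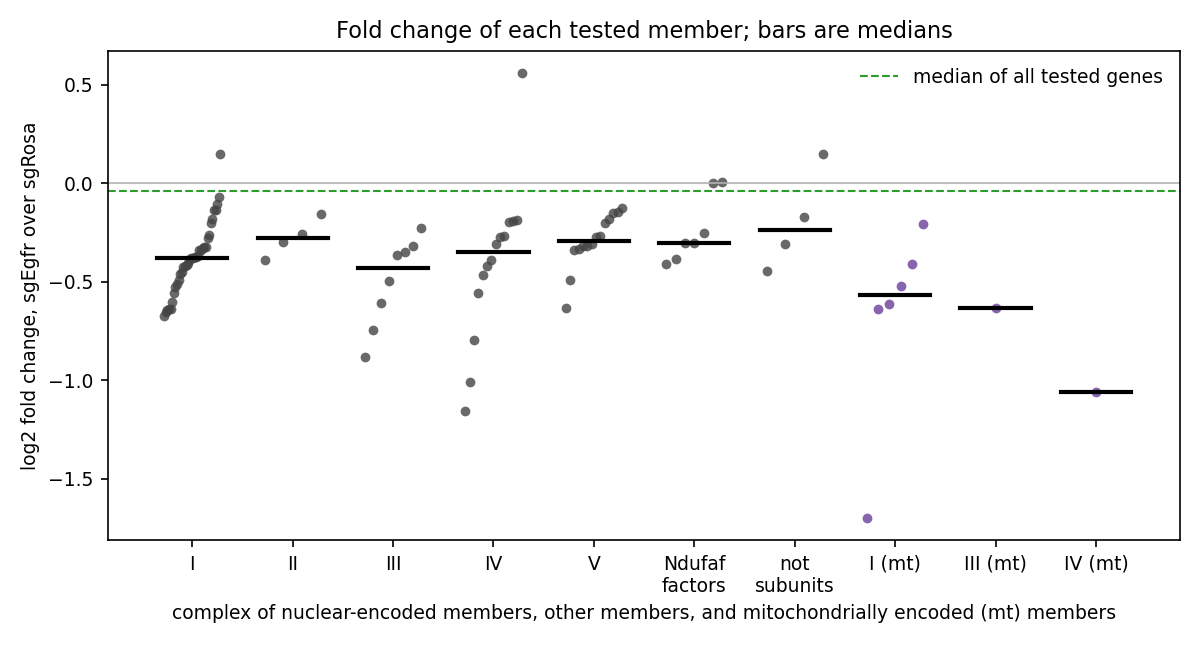
Log2 fold change, sgEgfr over sgRosa, of each of the 95 tested members (points) by complex and genome of origin, with a bar at each median. The dashed line is the median of all tested genes (-0.04); most points of each nuclear complex and all 8 mitochondrial points lie below 0.

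Complex I had 36 nuclear subunits in the tables, and all were tested. Of these 35 were lower and 1 was higher, with a median of -0.38, 4 of them at an unadjusted p under 0.05 and 14 with separated groups. Separated here means that every sgEgfr library lay below every sgRosa library. Among all genes tested, 2.93% were lower at an unadjusted p under 0.05 in edgeR and 7.6% were separated in this direction. Per kilobase of transcript, the median level was 126 CPM in sgEgfr libraries and 159 CPM in sgRosa libraries. The 7 nuclear core subunits, which carry the flavin, the iron-sulfur clusters and the quinone site, had a median of -0.33 and 7 negative values. The 29 accessory subunits, which surround the core, had a median of -0.38 and 28 negative values.

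Ndufb9, an accessory subunit of the membrane arm, was the complex I gene with the highest level per kilobase (396 CPM over the 6 libraries) and also among the 3 with the smallest p. It had 238, 201 and 206 CPM in sgEgfr libraries and 413, 294 and 319.91 CPM in sgRosa libraries. The groups did not overlap, and sgRosa 1 was the highest. Its log2 fold change was -0.67 (SE 0.25, unadjusted p = 0.0295, adjusted p = 0.781 in edgeR). Ndufa2, an accessory subunit next to the NADH-oxidising module, had 86.2, 83.5 and 78.7 CPM in sgEgfr libraries and 153, 96.9 and 139.8 CPM in sgRosa libraries, a log2 fold change of -0.65 (SE 0.24). Ndufb11, an accessory subunit of the membrane arm encoded on the X chromosome, had 77.4, 77.0 and 66.2 CPM in sgEgfr libraries and 133, 85.2 and 125 CPM in sgRosa libraries (-0.64, SE 0.25). In both genes the groups were separated, with sgRosa 2 the nearest to the sgEgfr libraries.

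Among the core subunits, Ndufs8, which holds a pair of iron-sulfur clusters on the way to the quinone site, had 58.0, 61.1 and 58.8 CPM in sgEgfr libraries against 94.5, 69.3 and 92.4 CPM in sgRosa libraries (-0.53, SE 0.22). Ndufs1, the largest core subunit, had 58.6, 54.9 and 54.6 CPM in sgEgfr libraries and 68.1, 61.8 and 81.0 CPM in sgRosa libraries (-0.33, SE 0.21). Both were separated. Ndufv1, which binds NADH and the flavin, had 94.0, 87.5 and 118 CPM in sgEgfr libraries and 100.1, 86.0 and 128 CPM in sgRosa libraries, with overlapping groups and a log2 fold change of -0.07 (SE 0.25). Ndufs8, Ndufs1, Ndufv1 and Ndufa10 were named after their values were seen. Ndufa10, an accessory subunit, had 128, 116 and 159.8 CPM in sgEgfr libraries and 87.5, 117 and 159.95 CPM in sgRosa libraries. The other separated genes of the complex were Ndufs6, Ndufa3, Ndufa6, Ndufa7, Ndufa12, Ndufa13, Ndufb7, Ndufb8 and Ndufb10, with log2 fold changes from -0.60 (Ndufa13) to -0.28 (Ndufa7).

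Complex II has 4 subunits, all nuclear, and links the citric acid cycle to the chain. None was called, and the median log2 fold change was -0.28. Sdha, the flavoprotein that oxidises succinate, had 454, 349 and 368 CPM in sgEgfr libraries and 355, 431 and 517 CPM in sgRosa libraries (-0.15, SE 0.27, adjusted p = 0.926). Sdhb, the iron-sulfur subunit, had 198, 174 and 208 CPM in sgEgfr libraries and 233, 173 and 287 CPM in sgRosa libraries (-0.26, SE 0.27). These catalytic subunits had overlapping groups.

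The membrane anchors of complex II bind ubiquinone. Sdhc had 31.3, 28.8 and 25.3 CPM in sgEgfr libraries and 42.5, 29.2 and 40.1 CPM in sgRosa libraries (-0.39, SE 0.23). Sdhd had 43.7, 41.5 and 44.0 CPM in sgEgfr libraries and 63.6, 49.7 and 45.7 CPM in sgRosa libraries (-0.30, SE 0.21). Of the 4 subunits, Sdhd alone had separated groups, with sgRosa 3 within 2 CPM of the sgEgfr libraries. Among all genes tested, 7.6% were separated in this direction.

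The choice by name gave 8 nuclear subunits of complex III and missed Cyc1, its cytochrome c1, which was kept in a further list. All 8 had negative values, with a median of -0.43, the most negative of the nuclear complexes as chosen by name in this fit. Cyc1, which is not in that median, had a log2 fold change of -0.13 (SE 0.30), with overlapping groups. Of the 8, 2 were lower at an unadjusted p under 0.05 in edgeR, against 2.93% of all genes tested. The differences between complexes were not tested. Uqcrb, an accessory subunit, had 27.7, 21.9 and 21.4 CPM in sgEgfr libraries and 65.2, 24.6 and 41.0 CPM in sgRosa libraries (-0.88, SE 0.35). Uqcrb has an antisense gene, Gm10767, over an exon. Uqcrh, the hinge protein between cytochrome c1 and cytochrome c, had 48.8, 48.9 and 45.6 CPM in sgEgfr libraries and 117, 53.0 and 69.6 CPM in sgRosa libraries (-0.74, SE 0.31). The groups of Uqcrh were separated, and its sgRosa 1 value stood well above the other sgRosa values.

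Uqcr10, a small accessory subunit, had 87.4, 67.6 and 86.1 CPM in sgEgfr libraries and 142, 86.5 and 139 CPM in sgRosa libraries (-0.61, SE 0.27). Uqcrq, another small accessory subunit, had the highest level per kilobase of complex III (566 CPM). It had 278, 242 and 267 CPM in sgEgfr libraries and 263, 254 and 406 CPM in sgRosa libraries (-0.23, SE 0.28). Its groups overlapped, and sgRosa 3 alone was above all sgEgfr libraries. The remaining subunits chosen by name were Uqcrc1 and Uqcrc2 (core proteins), Uqcrfs1 (the Rieske iron-sulfur protein) and Uqcr11, with log2 fold changes from -0.50 to -0.32. Without sgRosa 1 the value of Uqcrb was -0.46 and that of Uqcrh was -0.34.

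The largest fold changes of the nuclear subunits were in complex IV, in 2 small accessory subunits. Cox6a1, the form of subunit 6A found outside heart and skeletal muscle, had 152, 105 and 133 CPM in sgEgfr libraries and 481, 185 and 203 CPM in sgRosa libraries. The means were 130.1 ± 23.8 CPM in sgEgfr and 290.02 ± 166 CPM in sgRosa (SD, n = 3 each). The log2 fold change was -1.16 (SE 0.41, unadjusted p = 0.0226 and adjusted p = 0.781 in edgeR). The groups did not overlap, and sgRosa 1 stood far above every other library.

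Cox8a, the ubiquitous form of subunit 8, had 131, 88.6 and 111 CPM in sgEgfr libraries and 324, 167 and 176 CPM in sgRosa libraries, with separated groups. Its means were 110.3 ± 21.4 CPM in sgEgfr and 222 ± 88.2 CPM in sgRosa, and its log2 fold change was -1.01 (SE 0.33). The unadjusted p was 0.016 in edgeR, the smallest of any member. Cox6b1, which bridges the monomers of the enzyme, had 75.1, 56.9 and 63.9 CPM in sgEgfr libraries and 165, 74.3 and 101 CPM in sgRosa libraries (-0.80, SE 0.32), and its groups overlapped by less than 1 CPM. Without sgRosa 1 the log2 fold changes were -0.56 for Cox6a1, -0.62 for Cox8a and -0.41 for Cox6b1.

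Cox4i1, the nuclear subunit that binds ATP in the regulation of the enzyme, had the highest level per kilobase of all nuclear subunits (1240 CPM). It had 956, 814 and 859 CPM in sgEgfr libraries and 947, 1061 and 982 CPM in sgRosa libraries (-0.19, SE 0.27, adjusted p = 0.904). Its groups overlapped, and its sgRosa 1 value was the lowest of the sgRosa values, unlike that of Cox6a1 and Cox8a. Over all 14 tested nuclear subunits of complex IV the median was -0.35 and 13 were negative. Of the 14, 3 were lower at an unadjusted p under 0.05 in edgeR and 2 were separated, against 2.93% and 7.6% of all genes tested. The median of complex IV was -0.21 without sgEgfr 2 and -0.04 with the length trend removed.

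**Figure D3:**
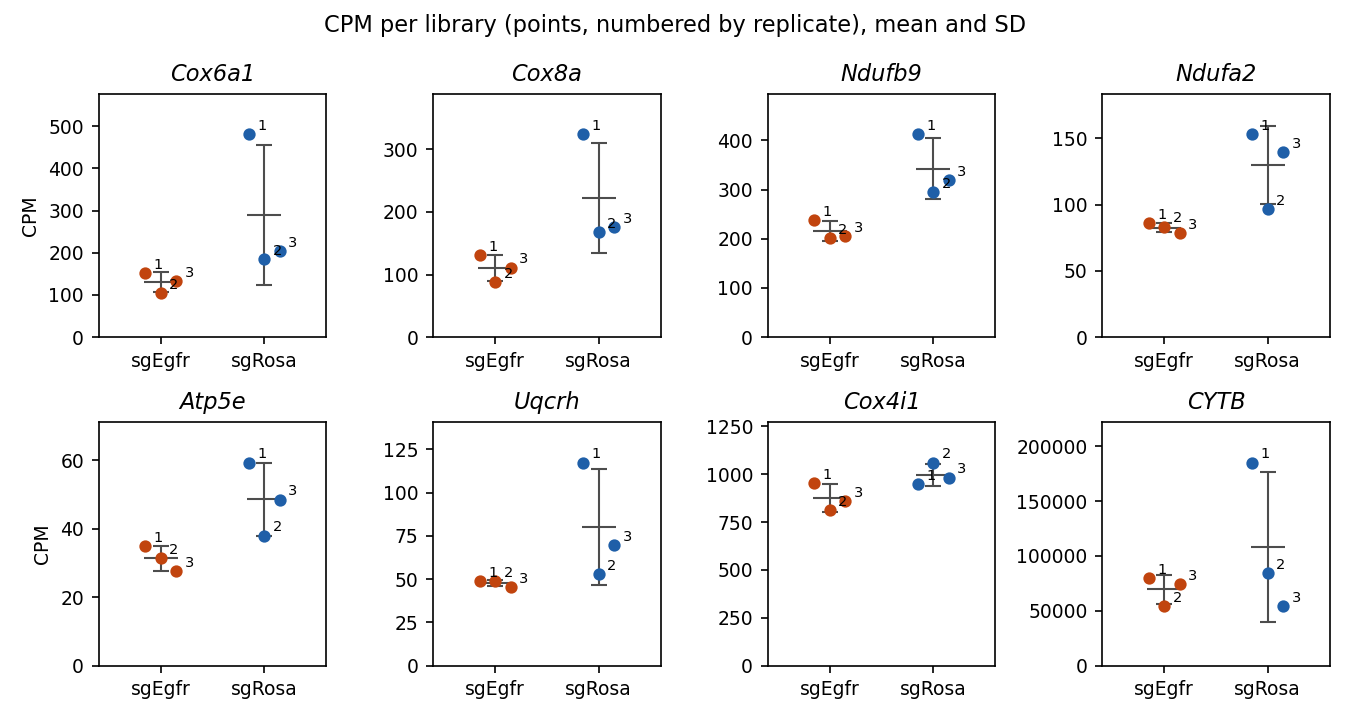
CPM per library (points numbered by replicate) with mean and SD for 7 nuclear subunits and CYTB, sgEgfr left of sgRosa, each on its own linear axis from 0. In Cox6a1, Cox8a, Ndufb9, Ndufa2, Atp5e, Uqcrh and CYTB sgRosa 1 is the highest point. Cox4i1 alone has another highest library, with overlapping groups at 814 to 1061 CPM.

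The tissue isoforms of complex IV were low and not separated. Cox4i2, a form of subunit 4 known from lung and from oxygen-sensing cells, had 2.56, 2.68 and 1.95 CPM in sgEgfr libraries and 1.69, 2.92 and 0.900 CPM in sgRosa libraries (0.56, SE 0.58). Cox6a2 and Cox7a1, known as heart and muscle isoforms, lay between 0.779 and 5.33 CPM in sgEgfr libraries and between 0.562 and 7.87 CPM in sgRosa libraries. Cox7a2, the counterpart of Cox7a1 outside muscle, had 127, 111 and 122.7 CPM in sgEgfr libraries and 165, 97.3 and 174 CPM in sgRosa libraries (-0.27, SE 0.28).

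Cox8b, the muscle form of subunit 8, did not pass the filter, with 28, 2 and 0 counts in sgEgfr libraries and 1, 0 and 54 counts in sgRosa libraries. Its high values were in sgEgfr 1 and sgRosa 3, which were also the libraries with choroid plexus markers. Cox6b2 and Cox7b2, known as testis forms, reached no more than 11 counts in a library, and Cox8c had none. Ndufa4, first assigned to complex I and since placed in complex IV, was counted with complex IV here. It had 258, 192 and 211 CPM in sgEgfr libraries and 245, 174 and 335 CPM in sgRosa libraries (-0.19, SE 0.30). Its paralog Ndufa4l2 had 11.3, 9.37 and 7.40 CPM in sgEgfr libraries and 25.6, 5.43 and 7.47 CPM in sgRosa libraries (-0.44, SE 0.56), a single high value in sgRosa 1.

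Complex V had 14 of 15 nuclear subunits tested, all 14 with negative values and a median of -0.29. In complex V 1 subunit was lower at an unadjusted p under 0.05 in edgeR and 2 were separated, against 2.93% and 7.6% of all genes tested. Atp5e, the epsilon subunit of the central stalk, had 34.97, 31.5 and 27.7 CPM in sgEgfr libraries and 59.3, 38.0 and 48.5 CPM in sgRosa libraries, with separated groups. Its log2 fold change was -0.63 (SE 0.24, unadjusted p = 0.0305 in edgeR). Atp5h, the d subunit of the peripheral stalk, had 119.8, 104 and 116 CPM in sgEgfr libraries and 139, 122 and 161 CPM in sgRosa libraries (-0.32, SE 0.22), also separated.

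Atp5d, the delta subunit of the central stalk, had 58.9, 45.1 and 61.6 CPM in sgEgfr libraries and 70.9, 57.2 and 80.5 CPM in sgRosa libraries (-0.34, SE 0.24). Atp5k, the small e subunit of the membrane sector, had the highest level per kilobase of complex V (436 CPM), with 124, 116 and 132 CPM in sgEgfr libraries and 159.7, 118 and 191 CPM in sgRosa libraries (-0.33, SE 0.25). Groups of both genes overlapped through sgRosa 2. The catalytic beta subunit Atp5b, named after its values were seen, had 360.4, 321 and 325 CPM in sgEgfr libraries and 387, 282 and 445 CPM in sgRosa libraries (-0.15, SE 0.27).

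The c subunits of the rotor ring come from 3 genes that encode the same mature protein. Atp5g1 had 74.9, 48.6 and 58.1 CPM in sgEgfr libraries and 75.1, 43.9 and 135 CPM in sgRosa libraries (-0.49, SE 0.40). Atp5g3 had 78.5, 73.9 and 79.1 CPM in sgEgfr libraries and 79.0, 68.1 and 109 CPM in sgRosa libraries (-0.15, SE 0.24). The groups of both overlapped, with sgRosa 3 highest. Atp5g2 did not pass the filter, with 6, 3 and 1 counts in sgEgfr libraries and 10, 0 and 14 counts in sgRosa libraries, and its transcript is covered to 88.24% by copies of at least 99% identity. Without sgRosa 3 the median of complex V was -0.05. With the length trend removed it was -0.02, and with limma-voom -0.03.

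The 7 Ndufaf factors, which assemble complex I and do not stay in it, had 5 negative and 2 positive values, with a median of -0.30. Ndufaf7, a methyltransferase acting on a core subunit, had 33.7, 33.0 and 34.3 CPM in sgEgfr libraries and 37.4, 38.0 and 44.9 CPM in sgRosa libraries (-0.25, SE 0.20). Ndufaf7 was the 1 separated gene of the 7, against 7.6% of all genes tested that were separated in this direction. Ndufaf1 had 23.5, 18.7 and 21.4 CPM in sgEgfr libraries and 26.7, 20.9 and 30.7 CPM in sgRosa libraries (-0.30, SE 0.24). Of the 4 other genes, Cox7a2l, a factor that joins complexes III and IV into supercomplexes, was separated at 71.4, 68.9 and 76.8 CPM in sgEgfr libraries and 94.8, 84.8 and 88.9 CPM in sgRosa libraries (-0.31, SE 0.20). The pseudogenes Atp5c1-ps and Uqcrh-ps1 reached no more than 6 counts in a library and were not tested.

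The 10 nuclear subunits at an unadjusted p under 0.05 had 1 library in common. In all 10 the highest value was that of sgRosa 1. Without that library the log2 fold changes of the 10 were all negative, between -0.62 and -0.34, and 1 of the 10 was at an unadjusted p under 0.05. The 10 were chosen in a fit that also held the remaining libraries, so their signs there are no independent support. Of 77 nuclear subunits tested without sgRosa 1, 75 were negative. Of the 13602 genes tested without it, 590 were at that p in either direction. In 29 of the 87 nuclear members tested an antisense gene overlaps an exon, for example Tmco6 at Ndufa2, Rbm10 at Ndufb11, Eef1b2 at Ndufs1, Emc8 at Cox4i1 and Cbarp at Atp5d. Whether strand was used in counting is not given in the sources used here, and reads from such pairs may not be told apart.

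Promoters of the nuclear subunits are known as a place where NRF1 and ETS factors of the GABP type act. The bases of 2 promoters are printed because their genes had the most negative log2 fold changes of the nuclear subunits. The sequences are from RefSeq (GRCm38.p6), the 250 bases before the start, on the minus strand, chr5:115348959-115349208 for Cox6a1 and chr19:7217617-7217866 for Cox8a. Capitals mark the NRF1 motif, the palindrome-like core of its known consensus, and the ETS motif CCGGAAG, on either strand. In Cox8a the motif runs past the start, so that its first 5 bases on this strand are shown.
Cox6a1: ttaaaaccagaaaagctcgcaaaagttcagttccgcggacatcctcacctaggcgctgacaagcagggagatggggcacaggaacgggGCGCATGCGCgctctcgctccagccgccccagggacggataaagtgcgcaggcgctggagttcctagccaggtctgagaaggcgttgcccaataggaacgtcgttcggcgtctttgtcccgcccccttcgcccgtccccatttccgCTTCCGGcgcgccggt
Cox8a: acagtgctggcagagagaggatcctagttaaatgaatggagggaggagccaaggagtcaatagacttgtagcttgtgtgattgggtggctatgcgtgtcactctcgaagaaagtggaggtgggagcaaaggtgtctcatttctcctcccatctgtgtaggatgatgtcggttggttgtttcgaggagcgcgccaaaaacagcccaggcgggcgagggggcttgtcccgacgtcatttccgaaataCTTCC
Of the 67 nuclear subunits matched in the RefSeq table, 10 (14.9%) held the NRF1 motif within 250 bases before to 50 bases after the start, against 693 of 27025 genes (2.56%). The ETS motif was in 16 (23.9%), against 2683 genes (9.93%), and the YY1 motif AAGATGGC in 10 (14.9%), against 862 genes (3.19%). At least 1 of the 3 was in 32 subunits (47.8%) and in 3916 genes (14.5%), and no subunit promoter had overlapping motifs. The 27025 genes are all those with a promoter in the RefSeq table, whether or not they were tested here, and no comparison with expressed genes alone was made. A match is a string of letters and does not show binding.

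The mitochondrial subunits had a wider spread between libraries than the nuclear ones. All 8 tested had negative values, with a median log2 fold change of -0.62, none at an unadjusted p under 0.05 and none with separated groups. The median of their log2 CPM was 12.97, 12.74 and 12.93 in sgEgfr libraries and 14.53, 13.23 and 12.39 in sgRosa libraries. The sgRosa libraries thus lay on both sides of the sgEgfr libraries. In 8 of 8 genes sgRosa 1 was the highest library, and in 6 of 8 sgRosa 3 was the lowest. Without sgRosa 1 the median was 0.15 and 2 of 8 were negative. Without sgRosa 3 it was -0.96.

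CYTB had 80088, 54215 and 74219 CPM in sgEgfr libraries and 185057, 84314 and 54565 CPM in sgRosa libraries (-0.64, SE 0.64, adjusted p = 0.863). ND1, the complex I subunit at the base of the membrane arm, had 31550, 26768 and 35683 CPM in sgEgfr libraries and 65333, 28991 and 14259 CPM in sgRosa libraries (-0.21, SE 0.63). COX1 had 7444, 6324 and 6952 CPM in sgEgfr libraries and 28109.6, 10346 and 4804 CPM in sgRosa libraries (-1.06, SE 0.65). In each of these genes sgRosa 1 lay above all sgEgfr libraries, and in ND1 and COX1 sgRosa 3 lay below them all. Without sgRosa 1 the log2 fold changes were 0.01 for CYTB, 0.55 for ND1 and -0.12 for COX1.

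The other complex I subunits of the mitochondrial genome form the proton-pumping membrane arm. ND4 had 13763, 10724 and 13673 CPM in sgEgfr libraries and 27300.5, 13845 and 9610.2 CPM in sgRosa libraries (-0.41, SE 0.51). ND2 (-0.52, SE 0.53), ND5 (-0.61, SE 0.56) and ND6 (-0.64, SE 0.58), the last on the opposite strand to the rest, had the same order of libraries at the top and bottom. ND3, whose counts are uncertain, had 7.89, 6.02 and 5.07 CPM in sgEgfr libraries and 46.4, 11.3 and 5.13 CPM in sgRosa libraries (-1.70, SE 0.74). Its value was -0.27 without sgRosa 1.

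**Figure D4:**
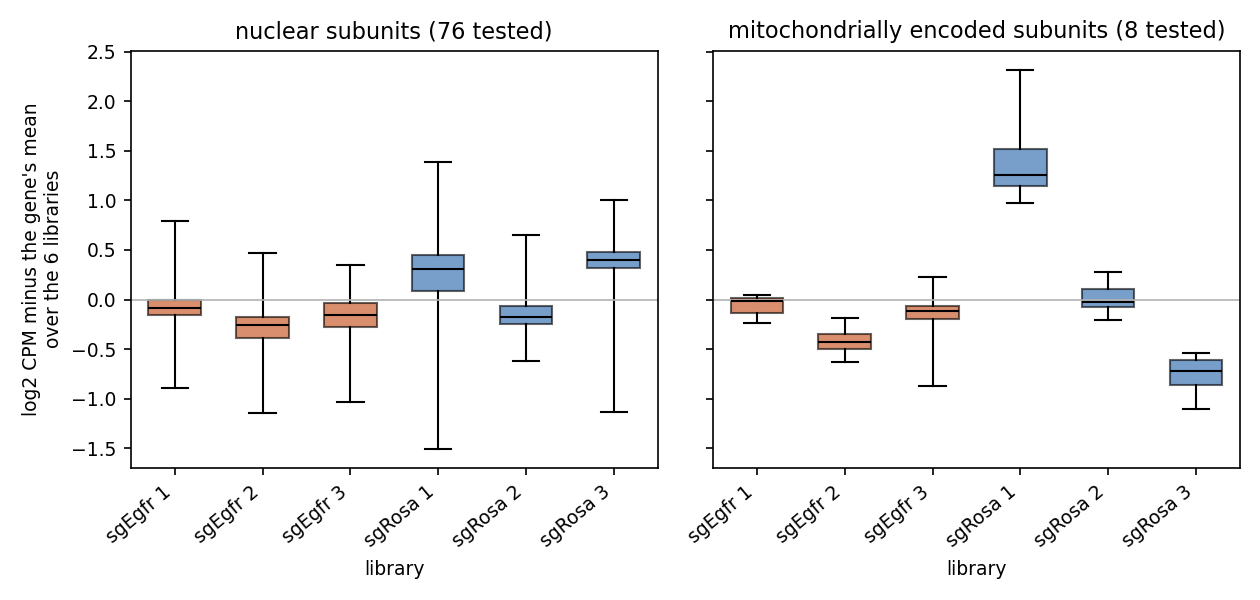
Log2 CPM of each tested subunit minus that gene's mean over the 6 libraries, as boxes (median and quartiles, whiskers to the extremes) per library, sgEgfr left of sgRosa. The nuclear subunits sit highest in sgRosa 1 and sgRosa 3, while the mitochondrial subunits sit highest in sgRosa 1 and lowest in sgRosa 3.

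The share of counts differed among the sgRosa libraries by genome of origin. Mitochondrial genes made up 14.47%, 11.47% and 14.94% of all counts in sgEgfr libraries and 29.77%, 15.69% and 10.31% in sgRosa libraries. The exact 95% binomial intervals (Clopper-Pearson, counting error only) were within 0.05 percentage points of each value. The means were 13.6% ± 1.88 in sgEgfr and 18.6% ± 10.1 in sgRosa (SD, n = 3 each). The nuclear subunits together made up 0.962%, 0.873% and 0.953% of counts in sgEgfr libraries and 1.07%, 0.970% and 1.475% in sgRosa libraries. The sgEgfr libraries were all below the sgRosa libraries for the nuclear share, at the closest with 0.962% in sgEgfr 1 against 0.970% in sgRosa 2. After TMM scaling the summed CPM of the nuclear subunits was 9950 in sgEgfr 1 and 9520 in sgRosa 2, so the groups overlapped. For the mitochondrial share the groups overlapped as well.

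Per count of a nuclear subunit there were 15.04, 13.1 and 15.7 mitochondrial counts in sgEgfr libraries and 27.9, 16.2 and 6.99 in sgRosa libraries. The sgRosa libraries again lay on both sides. The markers of other cells did not follow 1 order: sgRosa 1 had the highest sums of oligodendrocyte, endothelial (6 genes, 1428 CPM) and pericyte (5 genes, 932.8 CPM) markers, and sgRosa 3 the highest neuronal and choroid plexus sums. With a library's mean of pan-neuronal genes added to the fit as a covariate, the nuclear median was -0.48 (75 of 76 negative) and the mitochondrial median was 0.04 (3 of 8 negative). Without both libraries with choroid plexus markers the medians were -0.28 (65 of 74 negative) for nuclear and -1.06 (8 of 8 negative) for mitochondrial subunits.

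Within the mitochondrial counts the composition was compared on shares, which do not depend on the level of the whole. ND1 made up 21.1%, 24.0% and 24.3% of mitochondrial counts in sgEgfr libraries and 18.8%, 18.8% and 15.1% in sgRosa libraries. The groups did not overlap, and the exact two-sided permutation test over libraries gave p = 0.1, the smallest that 3 libraries against 3 allow, and 0.4 after adjustment over the 8 genes. CYTB made up 53.5%, 48.7% and 50.6% in sgEgfr libraries and 53.3%, 54.8% and 57.9% in sgRosa libraries (exact permutation p = 0.2). COX1 made up 4.97%, 5.68% and 4.74% in sgEgfr libraries and 8.10%, 6.72% and 5.10% in sgRosa libraries (exact permutation p = 0.2). ND3, whose counts are uncertain, was the other tested gene with separated shares, at 0.00527%, 0.00541% and 0.00345% in sgEgfr libraries and 0.0134%, 0.00733% and 0.00544% in sgRosa libraries (exact permutation p = 0.1, 0.4 adjusted). No share passed a threshold of 0.05, which this design cannot reach.

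**Figure D5:**
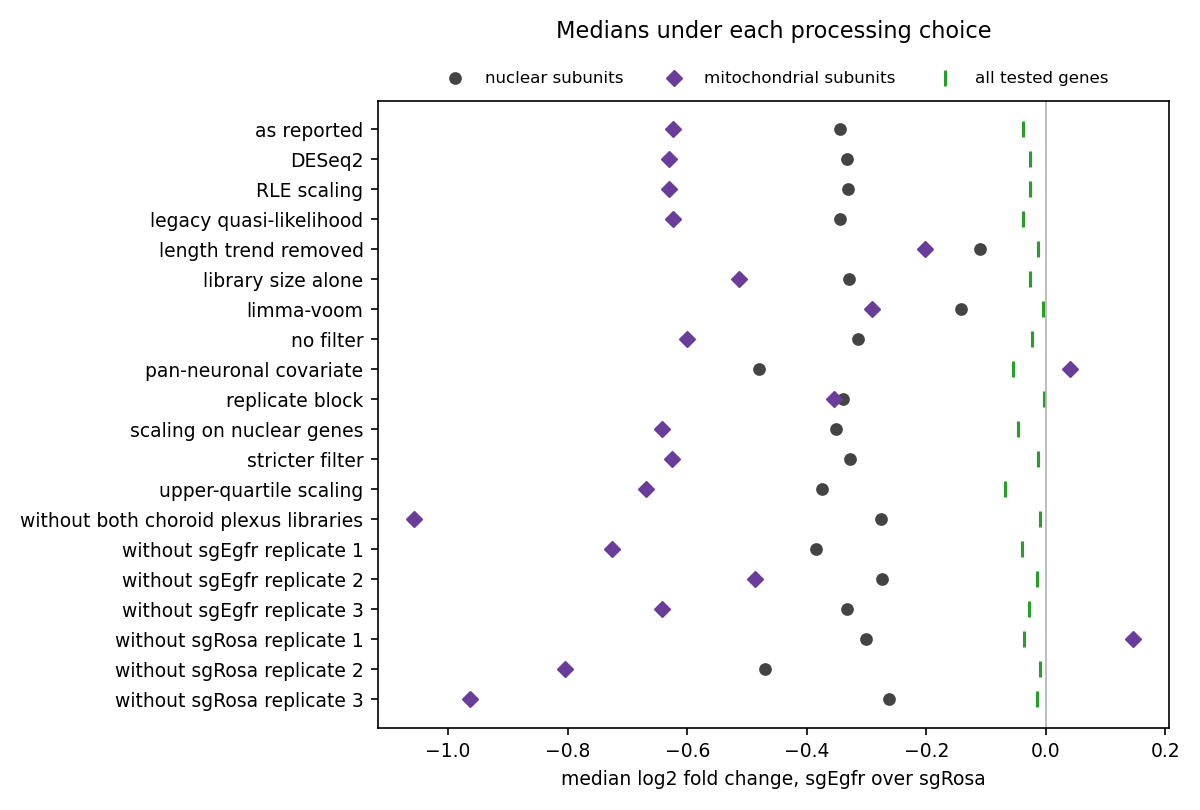
Median log2 fold change, sgEgfr over sgRosa, of the nuclear subunits (circles), the mitochondrial subunits (diamonds) and all tested genes (ticks) under each processing choice. The nuclear median stays between -0.48 and -0.11, while the mitochondrial median runs from -1.06 to 0.15.

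Genes that act with these complexes were taken as 7 further lists, and no gene of them passed the adjusted threshold in edgeR. Of 36 other assembly factors tested, 25 were negative and 11 positive, with a median of -0.25. Timmdc1, which helps to assemble the membrane arm of complex I, had a positive value, with 55.4, 62.7 and 74.0 CPM in sgEgfr libraries and 16.9, 40.9 and 41.3 CPM in sgRosa libraries (0.95, SE 0.35, adjusted p = 0.781). Cox15, which makes the heme A of complex IV, had 10.5, 8.48 and 11.3 CPM in sgEgfr libraries and 7.31, 5.85 and 4.77 CPM in sgRosa libraries (0.76, SE 0.31). Both were separated with every sgEgfr library above. Of the 36, 3 were separated in that direction and 4 with every sgEgfr library below, against 5.8% and 7.6% of all genes tested.

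The list for the carriers of electrons between the complexes held ubiquinone synthesis genes, cytochrome c and the complex III subunit Cyc1 (16 tested). It had 11 negative and 5 positive values with a median of -0.14. Coq6, a hydroxylase of ubiquinone synthesis, had 2.99, 5.36 and 5.46 CPM in sgEgfr libraries and 10.4, 9.61 and 8.01 CPM in sgRosa libraries (-1.02, SE 0.35), with separated groups. Cycs, the somatic cytochrome c, had 62.9, 54.4 and 60.01 CPM in sgEgfr libraries and 63.6, 50.1 and 103 CPM in sgRosa libraries (-0.29, SE 0.29), with overlapping groups. Adck3, a ubiquinone synthesis factor, had a value of -0.36 (SE 0.30).

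Genes of mitochondrial DNA expression (17 tested) had 14 negative values and a median of -0.25. Slirp, which stabilises mitochondrial messages with Lrpprc, had 23.2, 26.6 and 21.8 CPM in sgEgfr libraries and 36.0, 30.5 and 31.8 CPM in sgRosa libraries (-0.45, SE 0.21), with separated groups, and Lrpprc had a value of -0.42 (SE 0.27). Tfam, which packages and transcribes mitochondrial DNA, had 22.2, 19.6 and 23.0 CPM in sgEgfr libraries and 15.5, 16.3 and 25.9 CPM in sgRosa libraries (0.16, SE 0.27). The nuclear regulators (16 tested) had 7 negative and 9 positive values and a median of 0.04. Ppargc1a, a coactivator of mitochondrial biogenesis, had 20.05, 22.5 and 29.6 CPM in sgEgfr libraries and 5.62, 13.4 and 29.3 CPM in sgRosa libraries (0.55, SE 0.52). Nrf1, a factor whose motif is given above, had a value of -0.39 (SE 0.26), and Sirt3, a mitochondrial deacetylase, -0.64 (SE 0.29). The groups of both overlapped. The factors of the other motifs above had values of -0.03 (Gabpa, SE 0.49), -0.19 (Gabpb1, SE 0.27) and 0.02 (Yy1, SE 0.27), also with overlapping groups.

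The citric acid cycle (17 tested) had 12 negative and 5 positive values and a median of -0.17. Idh2, the mitochondrial NADP-dependent isocitrate dehydrogenase, had 12.6, 15.8 and 9.74 CPM in sgEgfr libraries and 29.5, 23.4 and 19.3 CPM in sgRosa libraries (-0.91, SE 0.29), and Suclg1, of succinyl-CoA ligase, a value of -0.47 (SE 0.23). Both were separated. Glycolysis (19 tested) had 9 negative and 10 positive values and a median of 0.02, with 0.66 (SE 0.33) for Eno2, the neuronal enolase, which is also in the list of neuronal markers, and -0.33 (SE 0.23) for Gpi1. Import machinery and porins (24 tested) had 20 negative and 4 positive values and a median of -0.18, with -0.65 (SE 0.27) for Timm8b and -0.60 (SE 0.26) for Tomm6. These lists describe the members' surroundings, and differences between lists were not tested.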

How the data were processed

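Bulk RNA sequencing of amygdala neurons gave 3 sgEgfr and 3 sgRosa libraries, grouped by the sample titles. The deposited values are the authors' raw, unnormalized read counts by gene, in 1 table per library and 1 of the series; 6 of its columns were identical to the separate tables, and 3 matched no sample and were not used. Per the submitters' processing notes, the tools included fastp 0.23.2, STAR 2.7.5c and featureCounts 2.0.1 with the mm10 build. No source used here gives the annotation or the options for strand and for multiply matching reads. Libraries were made from 5 ng of RNA, per the labels' protocols, with no molecular identifiers, so intervals cover counting error only. The labels do not say that the libraries came from separate animals, so a p-value reflects only the spread among them, which may be technical.

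Genes were kept by filterByExpr (minimum count 10, minimum total 15), which left 13159 of 35976, scaled by TMM and tested by quasi-likelihood in edgeR 4.0.16 under R 4.3.3. P-values were adjusted by Benjamini and Hochberg's method over all genes tested, with a threshold of 0.05. The common biological coefficient of variation was 0.355. SE is the fold change divided by the root of F. Transcripts and positions were taken from GENCODE for GRCm38 (the same assembly as mm10), and lengths were matched for 97.8% of tested genes and all 107 members. Member transcripts were searched with blastn against the transcripts of other annotated genes (at least 97% or 99% identity over a whole alignment of at least 50 bases). Alternatives were other scalings and filters, DESeq2 1.42.0, limma-voom (limma 3.58.1), a replicate block, a pan-neuronal covariate, removal of the trend on transcript length (lowess span 0.3) and leaving out libraries.

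Named genes were the mitochondrial subunits and complex II, the 3 subunits with the smallest p and the 1 with the highest level per kilobase in each other complex, the isoform sets, 2 Ndufaf factors, 2 genes per further list, and Ppargc1a, Tfam and Cycs, besides those said to be named after their values were seen. The members and lists were chosen with earlier results of these data known.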

Additional observations from a re-analysis of the deposited data

How the results depend on the processing

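Over 19 alternatives no member passed the threshold in any. Of 192 alternative values of medians and counts 180 kept their direction and moved by less than the spread between libraries, and of 1021 values of single genes 44 changed sign. DESeq2 called 25 genes of the whole table. The causes of the following shifts were not tested.

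With the trend on transcript length removed, the medians were -0.11 for the nuclear subunits, -0.13 for complex I, -0.039 for complex IV and -0.024 for complex V, and Uqcrq (0.12), Cox4i1 (0.080), Atp5k (0.039), Cox7a1 (0.25), Cox7a2 (0.056), Ndufa4 (0.17), Ndufa4l2 (0.096), Atp5g3 (0.16) and ND1 (0.28) changed sign. With limma-voom the medians were -0.11 for complex II and -0.025 for complex V, and the signs of Sdhb (0.022), Uqcrq (0.012), Cox6a2 (0.018), Cox7a1 (0.054), Cox7a2 (0.092), Ndufa4 (0.22), Ndufa4l2 (0.22), Atp5g1 (0.21), Atp5g3 (0.076) and Cycs (0.082) changed. With the pan-neuronal covariate the mitochondrial median was 0.041 and the nuclear minus the mitochondrial median was -0.52, against 0.28 as reported, and ND1 (0.61), ND2 (0.072), ND4 (0.043), ND5 (0.038), ND6 (0.18), Ndufa4l2 (0.090) and Tfam (-0.12) changed sign. Without both choroid plexus libraries Atp5g3 was 0.061 and Cycs 0.014.

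Leaving out 1 library at a time, the mitochondrial median ran from -0.96 (without sgRosa 3) to 0.15 (without sgRosa 1), the nuclear minus the mitochondrial median from -0.45 to 0.70, and the complex V median from -0.39 to -0.046. Single values ran from -0.60 to 0.55 for ND1, -0.85 to 0.16 for ND2, -0.70 to 0.13 for ND4, -0.96 to 0.17 for ND5, -1.02 to 0.34 for ND6, -0.96 to 0.015 for CYTB, -0.75 to 0.090 for Cox6a2, -0.65 to 0.42 for Cox7a1, -0.79 to 0.54 for Ndufa4l2, -0.31 to 0.020 for Uqcrq, -0.36 to 0.066 for Ndufa4, -0.76 to 0.014 for Atp5g1, -0.25 to 0.063 for Atp5g3 and -0.46 to 0.049 for Cycs.

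The labels number the libraries in both groups. Deviations of same-numbered libraries correlated at -0.03, 0.48 and 0.28, and sgEgfr 1 correlated best with sgRosa 3, so the numbers were not taken as pairs. With a replicate block the medians were -0.34 (nuclear) and -0.35 (mitochondrial), no member passed, and ND1 was 0.043.

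With 3 libraries a group, SEs were above 0.5 for all 8 mitochondrial subunits, whose libraries differed widely despite high counts in most, and for Ndufa4l2, Cox4i2, Cox6a2 and Cox7a1, which had few counts. Cox6a1 at -1.16, whose sgRosa 1 value stood far above the rest, was not called either. The size of difference that could be detected for single members was not tested.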
